A study of Mus musculus with 6 samples.

Results

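The 8 genes Gfi1, Gfi1b, Zfp217, L3mbtl2, L3mbtl3, Sfmbt1, Ctbp1 and Ctbp2 encode proteins that bring the histone demethylase LSD1 to chromatin, and their transcripts were compared in germinal centre B cells with and without a conditional deletion of Lsd1. All 8 are among the 15861 genes of the deposited count table, and 7 of the 8 passed the filter on low counts that left 10926 genes to test. Ctbp2 did not pass it. The genes were listed by function, but Gfi1 and L3mbtl3 lead the list because they were selected on their KO against WT fold changes in these same libraries. Those fold changes are therefore given as a description, and the counts over members that follow support nothing about them.

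LSD1, encoded by Kdm1a, removes methyl groups from lysines of the histone H3 tail and works in a complex with CoREST and histone deacetylases. The enzyme does not find its own sites. Zinc finger repressors, readers of methylated lysine with MBT domains and the CtBP corepressors carry it there. GFI1 and GFI1B do so through the SNAG domain, a short stretch at the start of the protein that imitates the histone tail and enters the active site of LSD1. In blood, GFI1 is known for its work in stem cells, neutrophils and lymphocytes, and GFI1B for its work in red cell and platelet precursors.

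The RNA was polyadenylated and came from B220+ GL7+ FAS+ cells sorted from C57BL/6 mice, 1 mouse per library, described as littermates. The WT group held 3 mice with the alleles Lsd1 f/f and no Cre. The KO group held 3 mice with Cgamma-cre+/- and the same Lsd1 f/f alleles. The labels do not name the immunisation, the age or the promoter behind the Cre beyond its name. A group with Cre and unfloxed Lsd1 was not analysed here, so Cre and the deletion cannot be told apart.

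Depth was 3390805 to 5524852 counts per library in WT and 12325300 to 14327654 in KO, so depth and genotype cannot be told apart either. On the scale of TMM-normalised read counts scaled to a common library size (CPM), Kdm1a stood at 134, 85.2 and 92.6 in the WT libraries, against 81.9, 33.0 and 21.8 in the KO libraries, so the library labelled KO 1 lies close to WT and the target gene does not clearly bear out its label. Every statement on KO includes that library unless it says otherwise. The 10 germinal centre B cell markers (among them Bcl6 and S1pr2) had summed levels, here as CPM of the unscaled totals, of 4640 to 4960 in WT and 3810 to 4520 in KO. The 11 naive or memory B cell markers summed to 199 to 213 CPM in WT and to 676, 303 and 363 in KO. The 9 plasma cell markers summed to 1770 to 2580 CPM in WT, against 2340 to 2980 in KO. Macrophage markers (10) ran from 198 to 1750 CPM in WT and from 134 to 1750 in KO, with the highest sums in WT 3 and KO 3. In bulk RNA, fewer cells of a type and less RNA per cell cannot be told apart.

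The SNAG domain is the part of GFI1 and GFI1B that contacts LSD1, and its coding bases are shown because the contrast between these 2 genes runs through the results below. The first 60 coding bases (20 codons) lie in the first coding exon of each gene, at chr5:107723779-107723838 on the minus strand for Gfi1 and chr2:28615317-28615376 on the minus strand for Gfi1b (GENCODE M21, GRCm38, the assembly of mm10). Capitals mark the bases that differ between the pair.
Gfi1: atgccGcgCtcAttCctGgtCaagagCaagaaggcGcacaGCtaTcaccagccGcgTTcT
Gfi1b: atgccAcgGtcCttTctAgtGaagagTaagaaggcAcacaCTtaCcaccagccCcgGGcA
The pair shared 45 of 60 bases here, or 75%. The 15 differences are spread along the stretch, and most fall on the third base of a codon. Encoded amino acids were not compared, so the 75% is a share of bases and not of the protein.

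Of the 7 tested recruiters, Gfi1, Zfp217, L3mbtl3 and Sfmbt1 were higher in every KO library than in any WT library, and Gfi1b, L3mbtl2 and Ctbp1 overlapped between the groups. With p-values adjusted over the 10926 genes, no tested member passed (0 of 7 at an adjusted p under 0.05 in the quasi-likelihood test of edgeR). Of all genes tested, 0.0732% passed as higher in KO and 0.00915% as lower. At an unadjusted p under 0.05 in edgeR, 4 of the 7 were higher and 0 lower, where 7.10% of all tested genes were higher and 5.50% lower. Groups without overlap were found in 4 of the 7, all with KO higher, against 10.0% of tested genes with KO higher and 7.95% with KO lower. DESeq2 called 2 of the 7 as higher, Gfi1 and L3mbtl3, where it called 0.805% of all genes tested as higher. With limma-voom 0 of the 7 and 0.0183% of all genes were called as higher. The median log2 fold change of the 7 was 0.46, and that of all tested genes was 0.01.

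**Figure D1:**
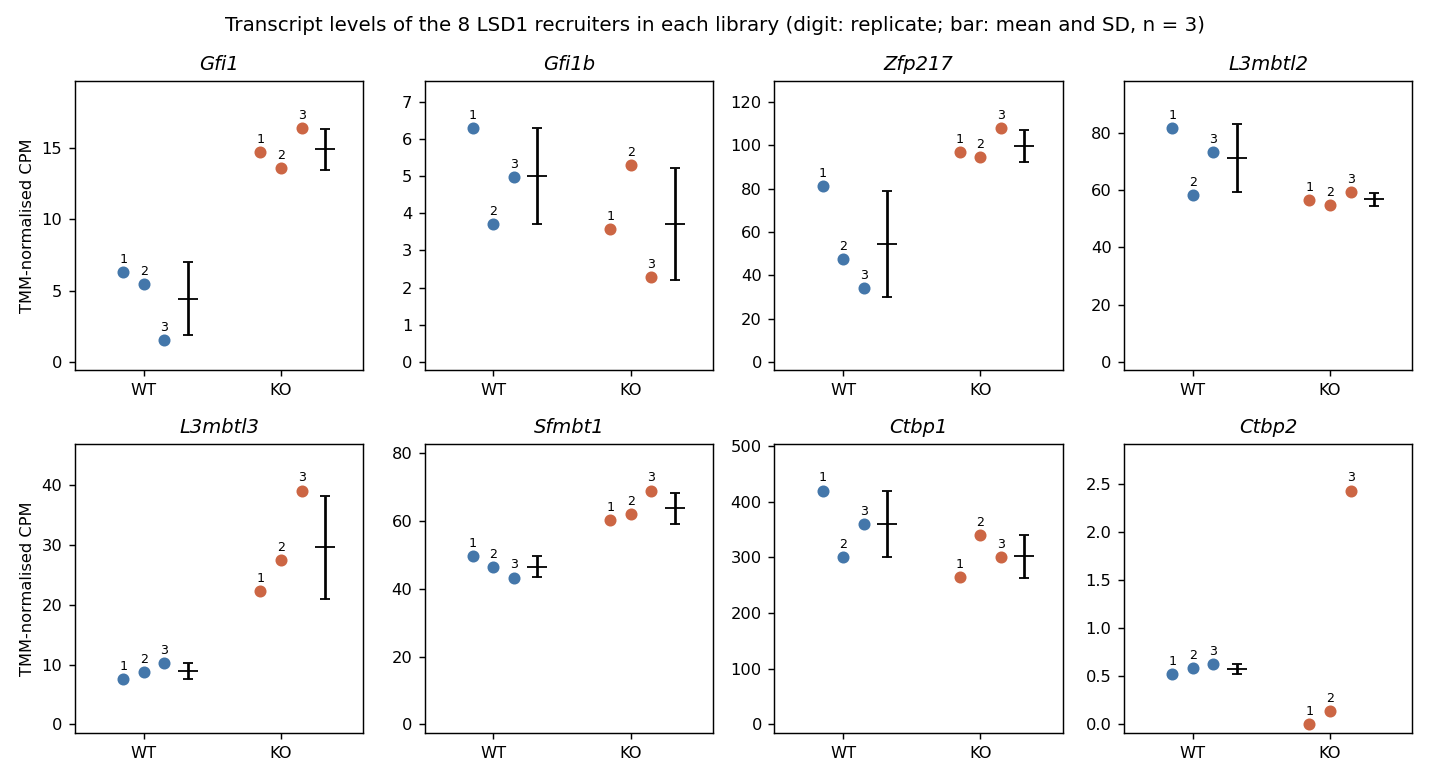
TMM-normalised CPM of the 8 recruiters, 1 panel per gene with its own linear axis. Blue points are the WT libraries and orange points the KO libraries, each marked with its replicate number, and the black bar gives the mean and SD of 3 libraries (left out for Ctbp2 in KO, where the SD exceeds the mean). Gfi1 and L3mbtl3 separate most widely, and Ctbp2 is near 0 in all libraries but KO 3.

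Among the DNA-binding repressors, Gfi1 (chr5:107716657-107726036, minus strand) had the largest fold change, though not the largest difference in CPM, which was that of Zfp217. It was read with 24, 28 and 5 counts in WT and 194, 193 and 230 in KO, or 6.30, 5.47 and 1.56 CPM in WT, against 14.7, 13.6 and 16.4 in KO. The KO libraries lay close together, and the spread was on the WT side, where WT 3 held only 5 counts. Mean levels were 4.45 ± 2.53 CPM in WT and 14.9 ± 1.42 in KO (SD, n = 3), 3.36-fold apart, and the log2 fold change was 1.72 (SE 0.43). Leaving out WT 3 brought this to 1.34, and leaving out KO 1 to 1.74. In KO 1, where Kdm1a was near its WT level, Gfi1 lay between its levels in KO 2 and KO 3. Whether Gfi1 moves with Kdm1a was not tested. Of the exon bases of Gfi1, 3.17% are shared with A430072P03Rik on the other strand. That gene is not listed in the count table.

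Gfi1b (chr2:28609450-28621982, minus strand), the paralogue with the same kind of SNAG domain, was read at 6.30, 3.71 and 4.99 CPM in WT, against 3.57, 5.29 and 2.29 in KO. The groups overlapped, with a log2 fold change of -0.42 (SE 0.46). Per kilobase of exon, on the RPKM scale, Gfi1 made up 36.5%, 45.8% and 15.2% of the Gfi1 and Gfi1b sum in WT and 70.3%, 59.6% and 80.5% in KO. On this scale Gfi1b was the more abundant of the pair in each WT library and Gfi1 in each KO library. The order in WT 1 and WT 2 rests on the exon lengths used, 3187 bases for Gfi1 and 1830 for Gfi1b. Before division by length, the pair had 24 counts each in WT 1, and Gfi1 led in WT 2 with 28 against 19. These are low counts, and the annotation used for counting is not known. The ratio of Gfi1 to Gfi1b ran from 0.179 to 0.846 in WT and from 1.48 to 4.13 in KO. As the ratio uses the same libraries that chose Gfi1, it is given without a test.

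Cells in which these repressors are best known left few transcripts. Neutrophil markers summed to 0.590 to 0.792 CPM in WT, against 1.14 to 2.74 in KO, with Elane, Mpo, Camp and Ltf not listed in the table (4 of 10) and S100a8 at no more than 8 counts in any library. Erythroid and megakaryocyte markers summed to 1.32 to 19.5 CPM in WT, against 1.68 to 8.38 in KO, and Gata1 had at most 3 counts. T cell markers summed to 180 to 249 CPM in WT, against 157 to 214 in KO, most of it Lck, while Cd3d and Cd3g had at most 15 counts, Cd28 at most 34, and Cd4 at most 32 in any library but KO 3, which had 152. The sums of the naive or memory B cell markers and of the neutrophil markers were higher in each KO library than in any WT library, the latter at a few CPM at most, and their part in the Gfi1 difference was not tested. The naive or memory B cell sum was 676 CPM in KO 1 and 303 CPM in KO 2, while Gfi1 stood at 14.7 and 13.6 CPM in the same libraries.

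Zfp217 (chr2:170108643-170148103, minus strand), a zinc finger protein that binds both CtBP and the LSD1 and CoREST complex, was read at 81.4, 47.7 and 34.0 CPM in WT, against 96.8, 94.4 and 108 in KO. All KO libraries were above WT 1, the highest of WT, by a small margin. The means were 54.4 ± 24.4 and 99.8 ± 7.29 CPM (SD, n = 3), and the log2 fold change was 0.87 (SE 0.29). Its size depended on WT 1 and WT 3, since it was 1.27 without WT 1 and 0.63 without WT 3. As for Gfi1, the 3 KO libraries agreed more closely than the 3 WT libraries.

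L3mbtl3 (chr10:26274468-26375971, minus strand), an MBT-domain reader that binds the Notch pathway factor RBPJ and brings LSD1 to its sites, had the largest fold change among the readers. It held 29, 45 and 33 counts in WT and 293, 390 and 547 in KO, or 7.62, 8.80 and 10.3 CPM in WT, against 22.3, 27.5 and 39.1 in KO. Here the WT libraries were tight, and KO 3 was the highest. Means were 8.90 ± 1.34 and 29.6 ± 8.62 CPM (SD, n = 3), 3.33-fold apart, with a log2 fold change of 1.74 (SE 0.29). The value was 1.90 without KO 1, where the gene passed (edgeR adjusted p = 0.0219), against an adjusted p of 0.0671 with all libraries and 0.0888 to 0.355 in the other fits without 1 library. It was 1.47 without KO 3. Within KO, the order of L3mbtl3 (KO 3 above KO 2 above KO 1) was the reverse of the order of Kdm1a. With 3 libraries this is a description only.

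Sfmbt1 (chr14:30714849-30822721, plus strand), another MBT protein found with LSD1 and CoREST, was read at 49.6, 46.5 and 43.3 CPM in WT, against 60.2, 62.2 and 69.0 in KO. Both groups were tight and did not overlap. The difference was small, at 46.5 ± 3.15 against 63.8 ± 4.60 CPM (SD, n = 3), and the log2 fold change was 0.46 (SE 0.20). L3mbtl2 (chr15:81663889-81688315, plus strand), the MBT reader of the Polycomb complex PRC1.6, was read at 81.7, 58.3 and 73.3 CPM in WT, against 56.4, 54.6 and 59.1 in KO. KO 3 lay just above WT 2, so the groups overlapped, and the log2 fold change was -0.32 (SE 0.21). Of the L3mbtl2 exon bases, 17.2% are shared with Chadl on the other strand, which had 1 count over all 6 libraries.

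The mix of these 3 readers differed between the groups. As the shares use the same libraries that chose L3mbtl3, they are given without a test. A higher L3mbtl3 level by itself lowers the share of L3mbtl2, whose own levels overlapped between the groups. On the RPKM scale L3mbtl3 made up 3.87%, 5.63% and 5.76% of the summed level of the 3 readers in WT and 12.2%, 14.7% and 18.3% in KO. L3mbtl2 held 65.2 ± 3.76% of the sum in WT and 47.9 ± 2.66% in KO, and Sfmbt1 held 29.7 ± 3.32% and 37.0 ± 0.56% (SD, n = 3). L3mbtl2 stayed the most abundant of the 3 in each library, and L3mbtl3 the least.

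**Figure D2:**
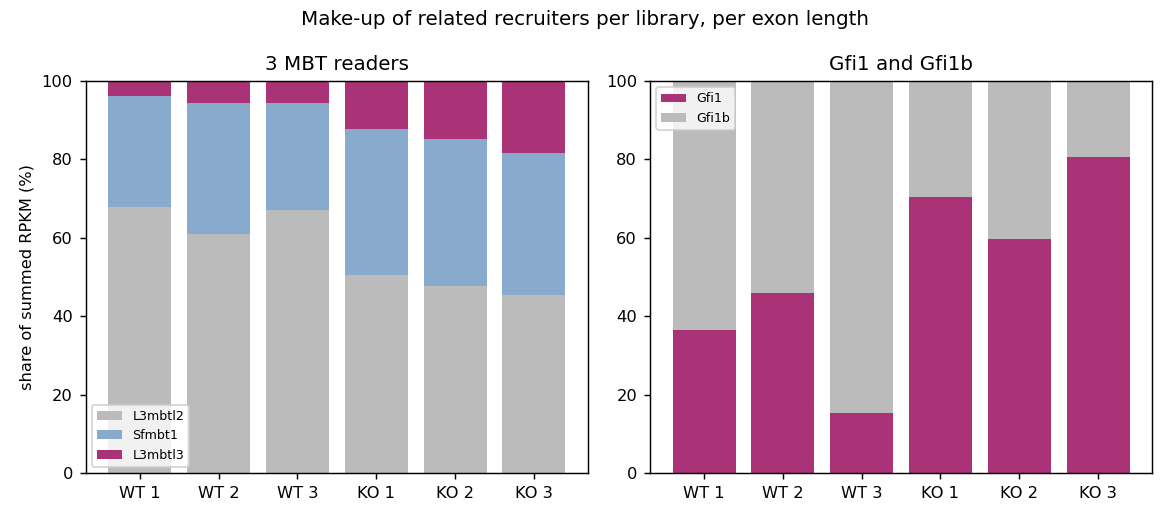
Stacked bars from 0 to 100% give, for each library, the share of the summed RPKM held by each MBT reader (left) and by Gfi1 and Gfi1b (right). The L3mbtl3 share is 3.87% to 5.76% in WT and 12.2% to 18.3% in KO, and the Gfi1 share exceeds the Gfi1b share in the 3 KO libraries and in no WT library.

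The CtBP corepressors bind short peptide motifs in many repressors and hold LSD1, histone methyltransferases and deacetylases together. Ctbp1 (chr5:33247723-33274994, minus strand) was the most abundant recruiter, with 420, 301 and 360 CPM in WT, against 265, 341 and 300 in KO. The groups overlapped, with means of 360 ± 59.4 and 302 ± 38.2 CPM (SD, n = 3) and a log2 fold change of -0.26 (SE 0.21). Ctbp2 (chr7:132987563-133124354, minus strand) held 2, 3 and 2 counts in WT and 0, 2 and 34 in KO. A count of 0 in KO 1 allows up to 0.243 CPM (3 counts, counting error only). KO 3 alone stands out, and without it the KO group held 2 counts against 7 in the shallower WT group. KO 3 also had a macrophage marker sum of 1750 CPM, as did WT 3, which had 2 Ctbp2 counts. The part of other cells in the KO 3 value was not tested. Of the Ctbp2 exon bases, 5.05% are shared with Fgfr2 on the same strand, which is not listed in the table.

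Levels of different genes were compared per exon length, as RPKM. In WT the order was Ctbp1 (80.5 ± 13.3), L3mbtl2 (12.0 ± 2.0), Zfp217 (8.86 ± 3.98), Sfmbt1 (5.38 ± 0.365), Gfi1b (2.73 ± 0.707), Gfi1 (1.39 ± 0.795), L3mbtl3 (0.916 ± 0.138) and Ctbp2 (0.0930 ± 0.00797, SD, n = 3). Neighbours whose WT libraries overlapped were L3mbtl2 with Zfp217, Zfp217 with Sfmbt1, and Gfi1 with L3mbtl3. In KO the order was Ctbp1 (67.4 ± 8.52), Zfp217 (16.3 ± 1.19), L3mbtl2 (9.54 ± 0.38), Sfmbt1 (7.39 ± 0.532), Gfi1 (4.69 ± 0.446), L3mbtl3 (3.05 ± 0.887), Gfi1b (2.03 ± 0.824) and Ctbp2. There the libraries of L3mbtl3 and Gfi1b overlapped, and the other neighbours did not. Ctbp1 was thus several times above every other recruiter in both groups. The sum over the 7 recruiters other than Ctbp1 was 39.0, 27.7 and 27.2 RPKM in WT and 41.1, 41.8 and 46.4 in KO.

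**Figure D3:**
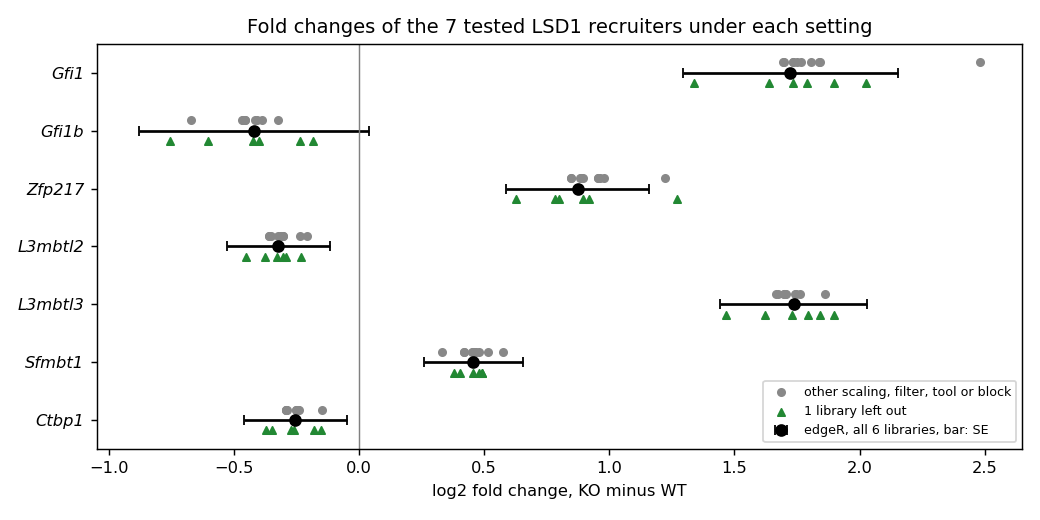
Log2 fold change (KO minus WT) of the 7 tested recruiters. Black points with SE bars are the edgeR fit to all 6 libraries, grey points the fits with another scaling, filter, tool, depth or replicate block, and green triangles the fits without 1 library. No gene has fitted values on both sides of 0, though the SE bar of Gfi1b (-0.42, SE 0.46) reaches past it. The lowest values of Gfi1 and L3mbtl3 are 1.34 and 1.47.

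The depth of the WT libraries limits the low genes most. When all libraries were thinned to the smallest total, the log2 fold changes were 1.77 for Gfi1, 0.96 for Zfp217, 1.66 for L3mbtl3 and 0.33 for Sfmbt1, and 0 of the 7 passed in edgeR. Scaling by library size alone moved the median of all genes to 0.13. Relative to that median, Gfi1 stood at 1.71, L3mbtl3 at 1.73, Zfp217 at 0.85 and Sfmbt1 at 0.44.

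The rest of the recruitment machinery was followed in 8 gene lists with 95 genes in all, 74 of them tested. None of the 74 passed over all genes (edgeR), while 14 were higher and 6 lower at an unadjusted p under 0.05, against 7.10% and 5.50% of all genes tested. The 14 include Sfmbt2 and Klf8, which passed the filter on low counts through their KO counts alone. They also include Zfp516, which fell short of the filter in WT 2 and so passed only through the KO group. Of the 74, DESeq2 called 1 and limma-voom 0. The median over the 74 was 0.15 on the log2 scale.

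In the LSD1 and CoREST core, 0 of 12 genes passed, with a median log2 fold change of 0.07. Besides Kdm1a, the smallest unadjusted p values belonged to Phf21a, which encodes the subunit that reads unmethylated H3, and Hmg20b, a DNA-binding subunit. Phf21a was read at 22.4 to 30.2 CPM in WT, against 34.9 to 45.1 in KO, without overlap. Hmg20b was read at 52.6 to 81.4 CPM in WT, against 39.0 to 55.8 in KO, with overlap.

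Of 16 other DNA-binding factors that recruit LSD1 or CoREST, 13 were in the table, 8 were tested and 0 passed (median 0.36). Snai1, Snai2 and Snai3, which share the SNAG domain with GFI1, did not pass the filter on low counts, nor did Insm1. Zfp516, a zinc finger gene, was read at 0.977 to 2.89 CPM in WT, against 3.88 to 5.47 in KO. With only 5 counts in WT 2, it passed the filter on low counts through the KO group, where it is higher. Rest, the repressor of neuronal genes, was read at 12.7 to 17.1 CPM in WT, against 19.8 to 28.3 in KO. Prdm1, the plasma cell repressor, overlapped between the groups, with 1.56 to 4.20 CPM in WT, against 26.9, 3.18 and 14.3 in KO. KO 2 was at WT levels of Prdm1, and its Gfi1 and L3mbtl3 levels were above WT. The part of plasma cells in the differences of Gfi1 and L3mbtl3 was not tested.

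Other MBT genes were 7, of which 5 were in the table and 4 tested, and 0 passed (median 0.54). Sfmbt2, the paralogue of Sfmbt1, had 0 counts in each WT library and 16, 31 and 36 counts in KO. Its pooled 2.09 CPM in KO was 8.83-fold above a floor of 3 counts over the pooled WT libraries (0.236 CPM). That floor covers counting error only, not the spread between mice or the difference in depth. The gene passed the filter through its KO counts alone, and it enters the list median. The other tested genes of the list had log2 fold changes of 0.27 (Scml4), 0.34 (Mbtd1) and 0.74 (Scmh1). Scmh1, a Polycomb group gene with MBT repeats, was read at 12.1 to 22.3 CPM in WT, against 25.1 to 32.5 in KO, without overlap. Mbtd1, a subunit of a histone acetyltransferase complex, was read at 26.8 to 61.6 CPM in WT, against 52.4 to 56.3 in KO.

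Partners of L3MBTL2 in PRC1.6 were even, with 6 of 11 above 0, 5 below, a median of 0.05 and 0 passing. Ring1, a ubiquitin ligase of Polycomb complexes, was read at 32.6 to 40.8 CPM in WT, against 21.7 to 28.7 in KO. Mga, the DNA-binding scaffold of the complex, was read at 39.1 to 67.8 CPM in WT, against 61.1 to 101 in KO, with overlap. Rybp, a subunit shared with other Polycomb complexes, had a log2 fold change of 0.41 (SE 0.30).

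Among 6 partners of L3MBTL3, 0 passed (median 0.08). On TMM-normalised CPM, 2 had all KO libraries above WT and 2 had all below. The shares over all tested genes were 10.0% and 7.95%. Rbpj, the DNA-binding factor of Notch signalling that L3MBTL3 binds, was read at 8.67, 11.1 and 7.48 CPM in WT, against 25.7, 13.9 and 24.0 in KO. Its log2 fold change was 1.21 (SE 0.32). Samd1, which encodes a reader of unmethylated CpG islands that works with L3MBTL3, pointed the other way, with 124, 70.0 and 113 CPM in WT, against 68.3, 59.5 and 69.6 in KO. Ddb1, the adaptor of a ubiquitin ligase, was read at 514 to 762 CPM in WT, against 424 to 507 in KO. The groups did not overlap for Samd1 or Ddb1 on this scale, though Samd1 in WT 2 (70.0 CPM) was next to KO 3 (69.6 CPM). As CPM of the unscaled totals, both genes overlapped. Samd1 was then at 64.8 in WT 2 and 74.2 in KO 3, and Ddb1 at 476 in WT 2 and 539 in KO 3. Of 9 Notch and RBPJ target genes, 8 were in the table, 5 were tested and 0 passed (median 0.06). Hes5 was read at 8.01 to 9.19 CPM in WT, against 3.34 to 5.22 in KO, while Hes1 was read at 2.49 to 8.99 CPM in WT, against 11.2 to 12.0 in KO. These 2 repressors of the same family thus lay on opposite sides. Dtx1, a Notch-responsive ubiquitin ligase gene, was read at 149 to 255 CPM in WT, against 144 to 157 in KO.

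The CtBP partner list had 19 tested genes of 20. None passed, 14 were above 0 and the median was 0.29. At an unadjusted p under 0.05 (edgeR), 5 were higher and 0 lower, where the shares of all genes tested were 7.10% and 5.50%. Klf3, a Krüppel-like repressor that works through CtBP, was read at 1.25 to 2.89 CPM in WT, against 12.2, 4.16 and 5.65 in KO. Its relative Klf8 held 2, 5 and 0 counts in WT and 38, 41 and 59 in KO. Klf8 passed the filter on low counts through its KO counts alone, and it is among the 5 that were higher. Nrip1, a nuclear receptor corepressor, was read at 11.5 to 14.7 CPM in WT, against 36.8, 19.9 and 22.0 in KO. Klf3 and Nrip1 were highest in KO 1, the library with the highest naive or memory B cell marker sum, and the part of such cells was not tested.

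Genes known to be repressed by GFI1 did not lean one way. Of 14 genes, 13 were in the table and 9 tested, with 4 above 0, 5 below, a median of -0.03 and 0 passing. Egr2, an early growth response gene, was read at 3.13 to 4.99 CPM in WT, against 5.79 to 12.5 in KO. Spi1, which encodes the transcription factor PU.1, was read at 142 to 242 CPM in WT, against 95.6 to 172 in KO, with overlap.

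**Figure D4:**
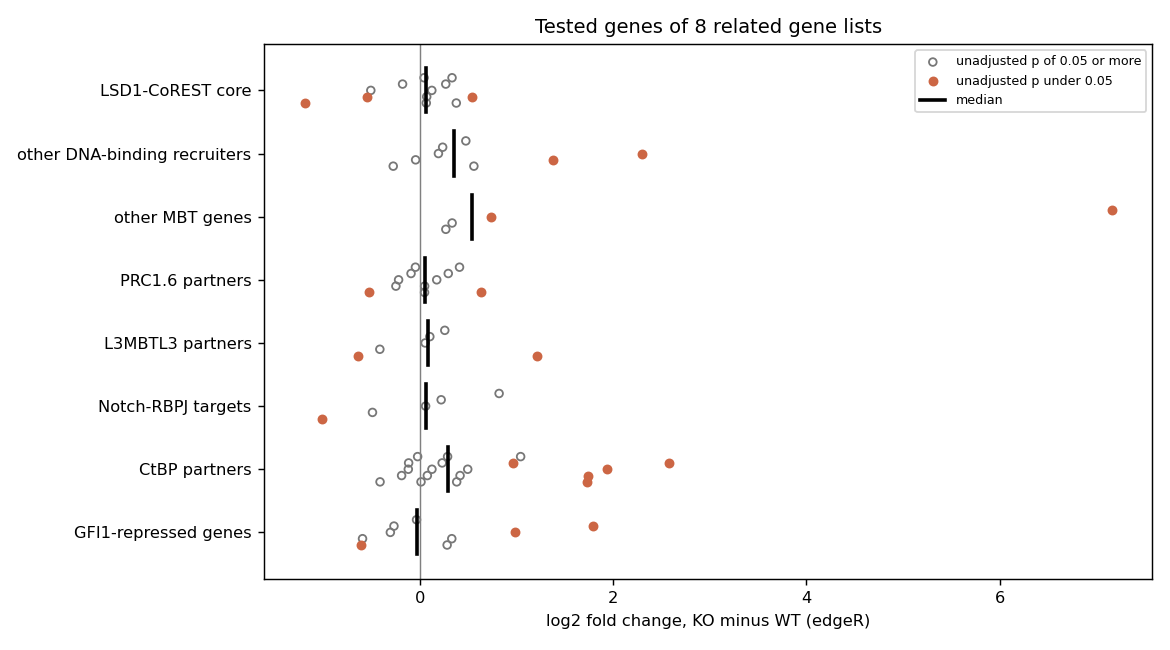
Each point is 1 tested gene of 8 related lists, placed by its log2 fold change (KO minus WT, edgeR). Filled points have an unadjusted p under 0.05, open points do not, and black bars are list medians, which run from -0.03 to 0.54. The point at 7.16 is Sfmbt2, with 0 counts in WT, where the fitted value depends on the prior count.

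The 250 bases before the start sites were searched because GFI1 and GFI1B are known to act on promoters of their own genes through sites with the core AATC. RefSeq promoters (GRCm38.p6) were matched for all 8 genes, 12 start sites in all. AATC, on either strand, had 4 matches before Gfi1b, 1 before one of the Gfi1 start sites and none before either L3mbtl3 start site. A start site of each of Gfi1, Zfp217 and Ctbp2 also had none, and the remaining windows had 1 or 2. At least 1 match was present in 69.0% of 32851 promoters and at least 4 in 7.04%. The motif TTCCNNGAA of BCL6, the repressor that defines germinal centre B cells, had no match in the 12 windows and was present in 4.06% of all promoters. Printed are the Gfi1b window, which had the most matches, and 1 of the L3mbtl3 windows, which are among those with none. They lie at chr2:28621983-28622232 and chr10:26375220-26375469, both on the minus strand, with AATC or its reverse complement in capitals.
Gfi1b: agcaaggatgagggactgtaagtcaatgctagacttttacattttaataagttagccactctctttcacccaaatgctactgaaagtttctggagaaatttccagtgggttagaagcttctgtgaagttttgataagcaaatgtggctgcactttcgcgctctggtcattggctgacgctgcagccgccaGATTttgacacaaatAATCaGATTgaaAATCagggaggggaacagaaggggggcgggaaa
L3mbtl3: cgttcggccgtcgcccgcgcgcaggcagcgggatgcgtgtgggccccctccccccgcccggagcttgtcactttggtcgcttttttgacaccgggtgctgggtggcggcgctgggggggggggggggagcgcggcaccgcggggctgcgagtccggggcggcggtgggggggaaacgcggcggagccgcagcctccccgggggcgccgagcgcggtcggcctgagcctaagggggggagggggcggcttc
The L3mbtl3 window was 78.8% G and C with 34 CpG, the Gfi1b window 44.4% with 5 CpG, and the median promoter 52.4% with 6. The higher and the overlapping genes did not divide by this property, since the Ctbp1 window was 77.6% G and C. A match is a description of letters and says nothing of binding in these cells.

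The profiles of Gfi1 and L3mbtl3 over the libraries were compared with those of other genes. Likeness was measured as the root mean square distance between log2 CPM profiles, each centred on its own mean, over the 6 libraries and 8523 candidate genes. The distance between Gfi1 and L3mbtl3 was 0.741 log2 units, against a median distance of 1.14, and ranked L3mbtl3 139 in order of nearness to Gfi1. Both genes were selected on their fold changes in these same libraries, so a distance below the median follows from that choice and supports nothing. Among the nearest to Gfi1 were Armcx2 (0.307), the zinc finger gene Zfp287 (0.355), the ubiquitin hydrolase gene Uchl1 (0.397) and the annexin gene Anxa1 (0.439). Armcx2, for example, was read at 20.5, 12.1 and 7.48 CPM in WT, against 49.8, 41.2 and 43.5 in KO, low in WT 3 and level across KO. Nearest to L3mbtl3 were Gca (0.173), which encodes the calcium-binding protein grancalcin, the Wnt secretion gene Wls (0.211), the inhibitory receptor gene Cd300lf (0.257), Sbf2 (0.263) and Srl (0.292), against a median of 0.927. Wls was read at 3.68, 3.32 and 4.36 CPM in WT, against 11.4, 10.5 and 22.4 in KO, highest in KO 3. None of these genes passed over all genes in edgeR, and all were chosen for likeness to genes that differed, so their own differences are no further evidence.

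**Figure D5:**
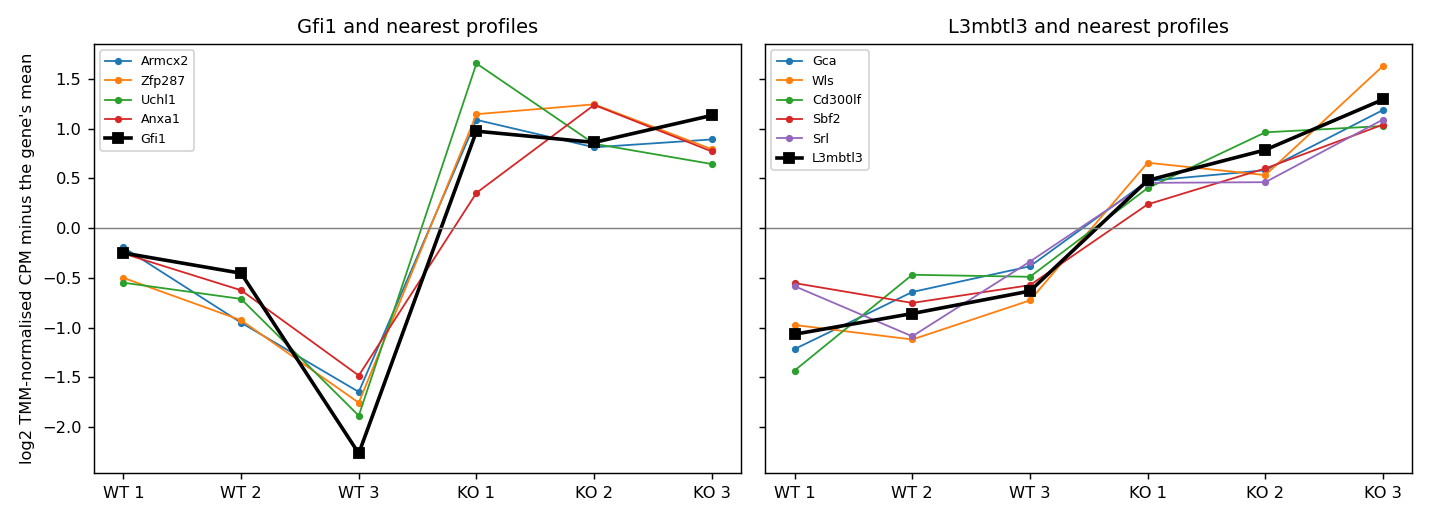
Log2 TMM-normalised CPM minus each gene's mean in the 6 libraries, for Gfi1 (left) and L3mbtl3 (right) in black with named nearest profiles in colour. Lines join libraries only to show each profile. The Gfi1 set dips in WT 3 and the L3mbtl3 set is highest in KO 3.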

How the data were processed

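RNA of sorted germinal centre B cells was sequenced from 6 mice, 3 WT and 3 KO, grouped by the sample titles. The deposited values are raw counts, listed by gene symbol with 1 column for each mouse. The submitters' processing notes name STAR 2.5.2 and featureCounts 1.5.2 besides CASAVA, and the build mm10. The annotation, strand setting and handling of multiply mapped reads were not found in the labels or the file.

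The main fit used edgeR 4.0.16 (R 4.3.3) on genes kept by filterByExpr, with TMM scaling and the robust quasi-likelihood test, no covariates, two-sided p-values and Benjamini-Hochberg adjustment over 10926 genes (threshold 0.05). SEs are those implied by the F statistic. CPM of single genes use TMM-scaled totals, marker sums use library totals, and RPKM divide TMM-scaled CPM by the exon union length of GENCODE M21. A single read equalled 0.181 to 0.295 CPM in WT libraries and 0.0698 to 0.0811 in KO libraries. Counting floors (3 counts) cover counting error only. The fits were first tested on simulated data.

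Alternatives were DESeq2 1.42.0, limma-voom (limma 3.58.1) with and without quality weights, 3 other scalings, no filter, at least 5 CPM in 3 libraries, thinning every library to the smallest total (the median of 11 draws by number of calls), the replicate block and each library left out.

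The members and lists were chosen with earlier results of these data known. Named are the 8 members, Kdm1a, up to 3 tested genes per list by unadjusted p, and the 5 nearest profiles (mean log2 CPM at least 3, prior count 2, no predicted genes) of Gfi1 and L3mbtl3. Some genes within this rule are not reported here. Some markers and untested list genes are named for their counts, a choice made after their values were seen. The mice are separate, so p-values reflect the spread between mice and library preparation together.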

Additional observations from a re-analysis of the deposited data

How the results depend on the processing

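All 7 tested members kept their direction in every alternative that fitted them (16 each, 15 for Gfi1b, which the stricter filter removed). L3mbtl3 passed in 6 of 16: library size alone (log2 fold change 1.86), no filter (1.74), at least 5 CPM in 3 libraries (1.75), DESeq2 (1.70), the replicate block (1.71, edgeR adjusted p = 0.0359) and without KO 1 (1.90). Gfi1 passed in 2 of 16, with no filter (1.74) and by DESeq2 (1.70). Its estimate was highest with quality weights, at 2.48. Without 1 library, Gfi1 ran from 1.34 to 2.03 and L3mbtl3 from 1.47 to 1.90.

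Over all genes, 8 were higher and 1 lower in KO. Higher and lower counts were 16 and 2 with library size alone, 81 and 12 with no filter, 88 and 34 by DESeq2, 2 and 0 by limma-voom, and 13 and 5 with quality weights. Lower genes were 2 with DESeq2 size factors, upper-quartile scaling or the stricter filter, and 0 after thinning. Without 1 library, higher genes ran from 1 (without WT 2 or WT 3) to 21 (without KO 1) and lower genes from 0 to 5. The cause of these moves was not tested.

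The shared replicate numbers are not stated to pair mice. Same-numbered libraries deviated together for numbers 1 (r = 0.341, across genes) and 3 (0.443) but not 2 (-0.052). Differently numbered libraries ran from -0.449 (WT 1 and KO 3) to 0.196 (WT 1 and KO 2), below the values for numbers 1 and 3. These values do not settle whether the numbers pair mice. The main fit did not treat them as pairs. With the replicate block, 20 genes were higher and 1 lower.

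Of the 34 other genes within the naming rule, none changed direction in 535 further values. They were chosen from the main fit to the same libraries, so their kept direction is a description only. Of the 535 values, 24 moved past the threshold, among them Kdm1a without KO 1 (-1.93) and Sfmbt2 with no filter and with quality weights. Depth limits the low genes, since Gfi1, Gfi1b, Ctbp2, Klf3, Klf8 and Sfmbt2 held 28 counts or fewer in each WT library.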
